A study of Mus musculus with 4 samples.

Results

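Messenger RNA of skeletal muscle was compared between mice carrying both the ob/ob genotype and the loss of TBP-2, labelled ob/ob TBP-2-/-, and mice labelled WT. TBP-2 is another name of Txnip, the thioredoxin-interacting protein. The comparison covered the 15107 genes, of 27586 represented on the arrays, that were well above background on both of these arrays, a call the scanner software makes for each spot. The question followed was the fate of the genes that stood 2-fold or more off the WT level in ob/ob muscle: whether they lay back at the WT level or still away from it once TBP-2 was missing too. There were 537 such genes, and 523 of them were also measured in ob/ob TBP-2-/- muscle. With the arrays scaled to their 75th percentiles most still stood off WT there, 324 in all, among them tendon matrix genes such as Comp at 63.3-fold above WT and the slow muscle gene Csrp3 at 5.53-fold below it. Another 101 lay back at the WT level, among them H19, Neat1, Actc1 and Pdk4. This order rests on the scaling: with spike-in RNA as the reference, 2409 genes were off in ob/ob, and returned was the largest class with 976 of them against 687 that stayed off. A separate set of 288 genes, counted with the 75th percentile scaling, stood off WT in the double mutant with ob/ob at the WT level, among them enzymes of branched-chain amino acid and ketone breakdown, which were lower.

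The series has 4 genotypes with 1 array each on the same slide: the lean WT and TBP-2-/-, and the obese ob/ob and ob/ob TBP-2-/-. All mice were 10 weeks old and had food freely available, and the labels name no treatment of any group. The labels do not name the muscle, the strain, the sex, the part of the gene deleted in TBP-2-/- or how many mice gave each RNA sample. The ob/ob sample is spelled differently in its genotype field, and its title was used. With 1 array a genotype, no difference has a replicate check, and higher and lower describe these arrays. Both differences that define the classes below share the WT array.

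Txnip belongs to the alpha-arrestin family. It binds reduced thioredoxin, restrains glucose uptake by promoting internalisation of glucose transporters, and is transcribed in response to glucose through the factors Mlxip (MondoA) and Mlxipl (ChREBP). Mice of the ob/ob genotype make no functional leptin, overeat, and become obese and insulin resistant. Mice without Txnip burn less fat and ketone bodies in muscle, and loss of Txnip improves glucose handling in leptin-deficient mice.

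Signals are the scanner software's background-subtracted spot intensities, and differences are in log2 after each array was scaled to its 75th percentile, with a standard error (SE) from the software's error model that covers spot error and not the spread between mice. Txnip itself gave 13209 on WT, 868 on TBP-2-/-, 13143 on ob/ob and 166 on ob/ob TBP-2-/-. Both arrays without TBP-2 were low and both arrays with it were high, and ob/ob TBP-2-/- was 74.4-fold below WT (log2 difference -6.22 ± 0.21 SE; probe on chromosome 3, 96646629 to 96646688, mm8). Lep, the leptin gene, gave 36.4 on WT, 110.0 on TBP-2-/-, 247 on ob/ob and 571 on ob/ob TBP-2-/-, so it was 16.8-fold above WT in the double mutant (4.07 ± 0.23 SE; chromosome 6, 29023244 to 29023303, mm8). The tissue label was checked on muscle genes: Ckm, muscle creatine kinase, gave signals from 242488 to 290343, and Tnnc2, fast troponin C, from 567210 to 576919 over the 4 arrays. Between 22674 and 24220 probes an array were well above background, the 75th percentile of the signal ran from 273 to 321, and no spot was saturated. Spike-in RNA placed the arrays differently from the 75th percentile: scaling on it would add 0.67 to every ob/ob difference from WT, 0.14 to every ob/ob TBP-2-/- difference and 0.24 to every TBP-2-/- difference.

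The promoter of Txnip is known for its paired E-box element, through which glucose induces the gene, and is shown because Txnip is the gene deleted. That of its paralogue Arrdc4, known to answer to the same factors, is shown because Arrdc4 was higher in the double mutant. Both are shown as the 250 bases before the RefSeq start site on GRCm38.p6, 5′ to 3′ on the gene's strand, with each match to the core of the element, CACGNG, on either strand in capitals.
Txnip, chr3:96557707-96557956, plus strand: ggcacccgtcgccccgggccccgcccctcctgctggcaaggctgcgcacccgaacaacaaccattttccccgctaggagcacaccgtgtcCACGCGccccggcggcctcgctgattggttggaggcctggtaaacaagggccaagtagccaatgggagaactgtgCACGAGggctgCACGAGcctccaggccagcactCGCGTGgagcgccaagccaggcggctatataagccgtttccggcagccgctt
Arrdc4, chr7:68749239-68749488, minus strand: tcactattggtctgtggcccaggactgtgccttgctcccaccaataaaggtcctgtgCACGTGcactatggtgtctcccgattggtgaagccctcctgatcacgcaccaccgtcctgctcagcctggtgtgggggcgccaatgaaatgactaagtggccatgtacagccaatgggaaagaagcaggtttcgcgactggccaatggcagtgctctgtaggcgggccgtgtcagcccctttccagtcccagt
Txnip has 4 matches, of which the middle pair forms 1 match to the paired element (CACGNG, then 5 bases, then CNCGNG), and Arrdc4 has 1 match and no paired match. The core occurs in 7723 of 32851 such windows (23.5%), overlapping the paired element wherever that occurs, and the paired element in 92 (0.280%). A match describes the letters only. Arrdc4 gave signals of 159.9 on WT, 383 on TBP-2-/-, 258 on ob/ob and 513 on ob/ob TBP-2-/-, so both TBP-2-/- arrays were above WT and the double mutant was the highest, 3.44-fold over WT (1.78 ± 0.21 SE). Mlxip gave 767, 1211, 1134 and 1544 in the same order, highest in the double mutant at 2.16-fold over WT. Of the 10 measured genes of the arrestin domain and glucose-sensing list, 3 were 2-fold higher in the double mutant, against 3.89% of all genes. Txnip alone was 2-fold lower, against 2.15% of all genes.

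In ob/ob TBP-2-/- muscle 588 of 15107 genes (3.89%) were 2-fold or more higher than in WT and 325 (2.15%) were 2-fold or more lower, 913 (6.04%) either way. Higher genes made up 64.4% of those called, and 76.6% under spike-in scaling. By comparison 287 of 15079 genes (1.9%) were higher and 250 (1.66%) lower in ob/ob (3.56% either way), and 265 of 15209 (1.74%) and 134 (0.881%) in TBP-2-/- (2.62% either way). The median difference over all genes was -0.03 in the double mutant. Of the 889 genes called in the double mutant that were also measured in ob/ob, 325 were 2-fold off in ob/ob, 276 were between 1.5-fold and 2-fold off there, and 288 were within 1.5-fold of WT in ob/ob. These counts depend on the scaling: under spike-in scaling 791 genes were higher and 242 lower in the double mutant while 2409 were off in ob/ob, which reverses the order of the 2 genotypes, and 48 genes higher and 115 lower in the double mutant had ob/ob at the WT level.

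The 523 genes off in ob/ob were sorted by where the double mutant lay along the direction of the ob/ob difference. In 324 (62.0%) the double mutant was still 2-fold or more off on the same side, called stayed off. Another 91 (17.4%) lay between 1.5-fold and 2-fold, called partway. Within 1.5-fold of WT lay 101 (19.3%), called returned. The remaining 7 were 1.5-fold or more off on the opposite side, called overshot. Under spike-in scaling 28.5% of the 2409 genes off in ob/ob stayed off, 30.3% came partway and 40.5% returned. Of the 283 genes that were higher in ob/ob, 202 (71.4%) stayed off and 40 (14.1%) returned. Of the 240 that were lower, 122 (50.8%) stayed off and 61 (25.4%) returned. These shares were not tested. The median ratio of the double mutant's log2 difference to that of ob/ob was 1.07 for the higher genes and 0.76 for the lower ones.

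**Figure D1:**
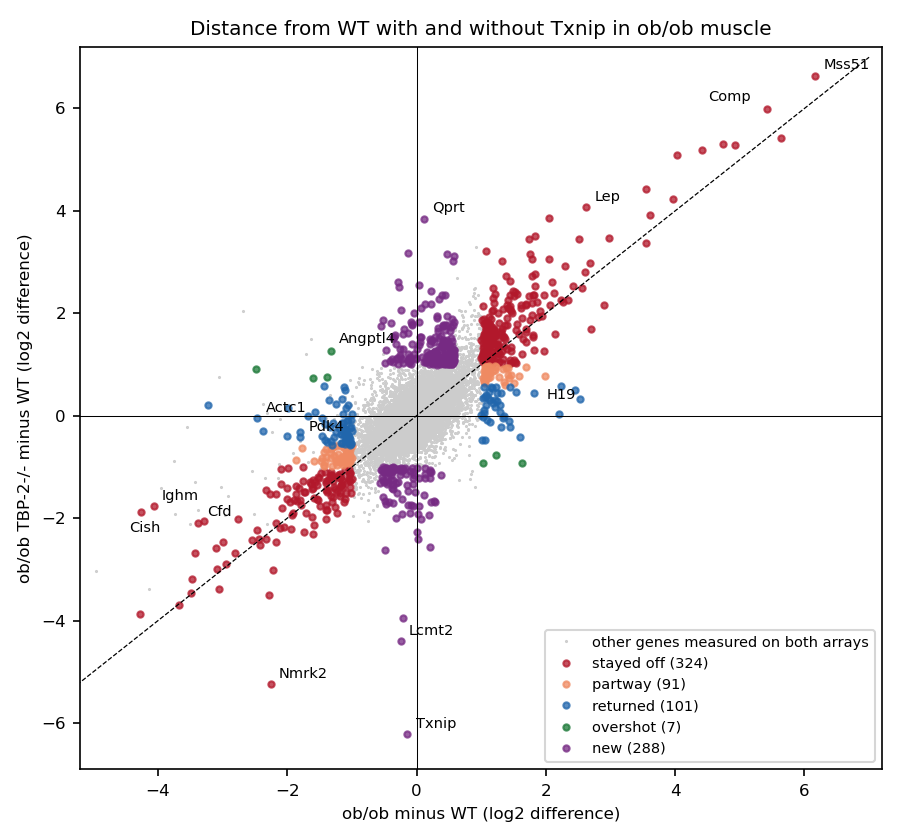
Each point is a gene, with the log2 difference of ob/ob from WT on the x axis and that of ob/ob TBP-2-/- from WT on the y axis, 1 array a genotype; colours mark the classes, grey points with a large x value were not well above background on ob/ob, and the dashed line marks equal differences. The 324 stayed off genes lie along the dashed line, the 101 returned genes lie near the horizontal axis, and Txnip and Qprt are far from it with ob/ob at the WT level.

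The classes have edges that single arrays cannot place exactly, and 120 of the 523 genes lay within 10% of a class limit. Just inside the 2-fold limit in ob/ob was the transcript listed as NAP058430-1 (log2 difference -1.002), and just outside it on the other side was Jup, plakoglobin (0.999). At the limit between stayed off and partway, Mmp9 stood at -1.01 in the double mutant and Iigp1 at -0.98. At the limit between partway and returned, Pitx1 stood at -0.585 and Foxp2 at -0.581. Some genes have a further probe that the sorting did not use. In the stayed off class 50 genes have one, and it was at least 2-fold off the same way in the double mutant for 32 of them. In the returned class 19 genes have one, and it was within 1.5-fold of WT in the double mutant for 13, but 2-fold off in ob/ob for 5 and both for 3. In the stayed off class the further probe was 2-fold off the same way in ob/ob for 31 of 50.

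The TBP-2-/- array took no part in the sorting and tells which arrays stand apart. Among the 324 stayed off genes, TBP-2-/- lay within 1.5-fold of WT for 104, so that both ob/ob genotypes differed from both lean ones. For 128 it was 2-fold off the same way, 98 of them higher and 30 lower, so that the WT array stood apart from all other arrays. For these 128 genes an effect of genotype and a property of the single WT sample cannot be told apart. Among the 101 returned genes TBP-2-/- lay at the WT level for 68, which leaves ob/ob as the array standing apart. For 12 it was 1.5-fold or more off on the opposite side from ob/ob. For the 68 the ob/ob genotype and the single ob/ob sample likewise cannot be told apart. The shares of all genes that were 2-fold off in TBP-2-/- are those given above, 1.74% higher and 0.881% lower.

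**Figure D2:**
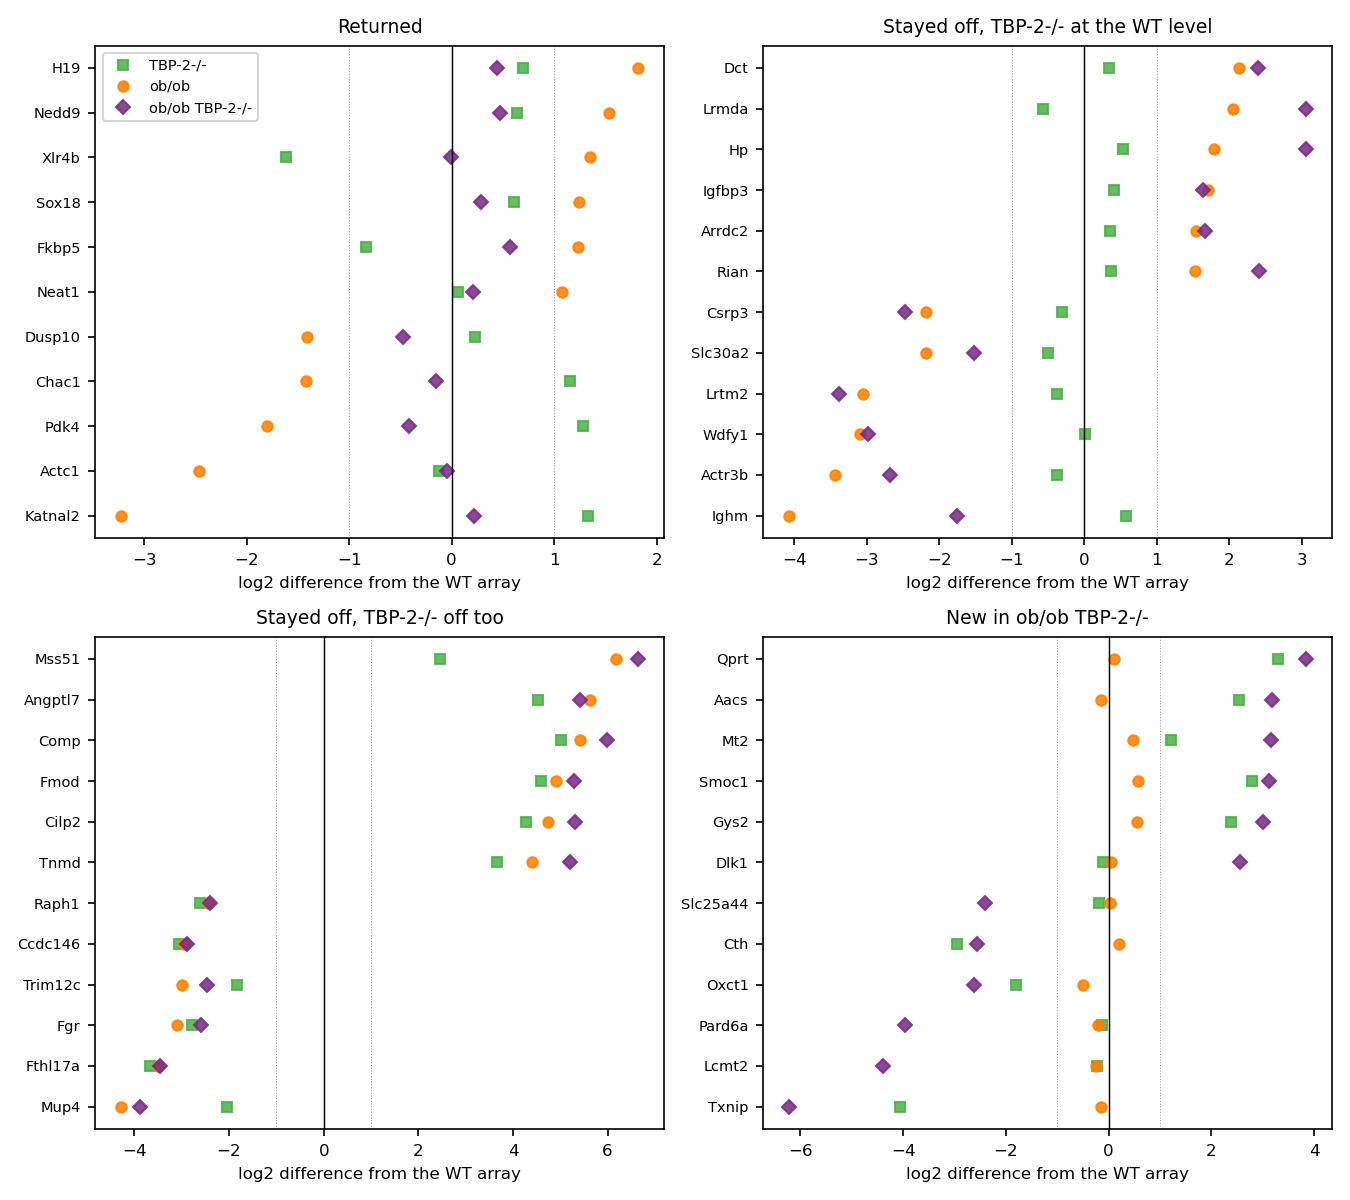
For the genes named in each class, the x axis gives the log2 difference from the WT array of TBP-2-/- (squares), ob/ob (circles) and ob/ob TBP-2-/- (diamonds), with 1 array each; dotted lines mark 2-fold. Diamonds lie near 0 in the returned panel. They lie beside the circles for most genes in both stayed off panels, but over 1 log2 unit away for Ighm, Hp and Lrmda. In the panel of new genes they lie away from the circles, and for Dlk1, Lcmt2, Pard6a, Slc25a44, Mt2 and Txnip also away from the squares.

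Returned genes that were high in ob/ob included non-coding RNAs, an endothelial factor and a glucocorticoid target. H19, an imprinted non-coding RNA expressed from the maternal allele, gave 3918 on WT, 6963 on TBP-2-/-, 15151 on ob/ob and 4973 on ob/ob TBP-2-/-. Its signal was highest in ob/ob, 3.52-fold over WT, and 1.36-fold over WT in the double mutant (log2 difference 0.44 ± 0.20 SE; chromosome 7, 142385254 to 142385313, mm8), with TBP-2-/- between. Neat1, the non-coding RNA that builds paraspeckles, gave 15371, 17519.6, 35519 and 16508 in the same order of arrays, and ob/ob alone was high at 2.11-fold over WT. Sox18, a transcription factor of endothelial cells, gave 235, 392, 609.7 and 267, and Nedd9, a scaffold protein of focal adhesions, gave 81.1, 138, 258 and 105. In both, ob/ob was highest, and the double mutant lay 1.22-fold and 1.39-fold over WT. Fkbp5, a co-chaperone of steroid receptors that glucocorticoids induce, gave 449, 275, 1155 and 619.8, with TBP-2-/- the lowest and the double mutant at 1.48-fold over WT, just inside the returned class; its other probes put the double mutant 0.64 to 2.79 above WT in log2 and ob/ob 0.56 to 0.93, under 2-fold, so its place in the class rests on 1 probe. Xlr4b, an imprinted X-linked gene, gave 248, 88.7, 695 and 229.7, with TBP-2-/- the lowest. With spike-in RNA as the reference, the double mutant lay above WT by 0.59 for H19, 0.61 for Nedd9 and 0.71 for Fkbp5. These 3 genes were then more than 1.5-fold above WT, outside the returned class.

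Returned genes that were low in ob/ob included fuel selection and contractile genes. Pdk4, the kinase that shuts off pyruvate dehydrogenase when fat is burned, gave 27914 on WT, 74243 on TBP-2-/-, 8756 on ob/ob and 19557 on ob/ob TBP-2-/-. TBP-2-/- was the highest and ob/ob the lowest, 3.50-fold below WT (-1.81 ± 0.20 SE), while the double mutant lay 1.33-fold below WT (-0.41 ± 0.20 SE; chromosome 6, 5433441 to 5433500, mm8). Chac1, which breaks down glutathione, had the same order with 7975, 19381, 3271 and 6669.8. In both genes the array without TBP-2 was above its partner with TBP-2, on the lean and on the ob/ob side. Actc1, the actin of heart and developing muscle, gave 26419.6, 26492, 5255 and 23959, so ob/ob alone was low, 5.52-fold below WT, with 2 of 7 neighbouring spots on that array also standing apart. Katnal2, a katanin-like protein, gave 358, 986, 42.0 and 387, with ob/ob 9.35-fold below WT and the double mutant 1.16-fold above it. Dusp10, a phosphatase of stress kinases, gave 1807, 2322, 744 and 1214. In Actc1, Katnal2 and Dusp10 ob/ob was the lowest array. Among the 15 measured macrophage markers Aif1 was the only one off in ob/ob, at -1.04, and it lay in the returned class at -0.24. With spike-in RNA as the reference, Chac1, Dusp10 and Aif1 were less than 2-fold off in ob/ob.

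Genes that came partway included metabolic and growth hormone targets. Nnt, the mitochondrial transhydrogenase, gave 7619 on WT, 8950.5 on TBP-2-/-, 2450.0 on ob/ob and 4606 on ob/ob TBP-2-/-, so ob/ob was 3.41-fold and the double mutant 1.54-fold below WT, with the lean arrays alike. Mouse substrains are known to differ in Nnt, and the labels give no strain. Smox, which oxidises spermine, gave 15044, 17351, 4507 and 7735 and Ucp3, a mitochondrial uncoupling protein of muscle, 1411, 2148, 556 and 717. Tbc1d1, a Rab GTPase regulator of glucose transporter traffic, was on the other side with 176, 246, 577 and 283. In these genes the double mutant lay between ob/ob and the lean arrays. With spike-in RNA as the reference, Ucp3 was less than 2-fold off in ob/ob. Nnt then lay within 1.5-fold of WT in the double mutant, in the returned class.

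Only 7 genes crossed to the other side of WT. Slpi, a secreted inhibitor of leukocyte proteases, gave 116 on WT, 95.2 on TBP-2-/-, 22.6 on ob/ob and 203 on ob/ob TBP-2-/-, and was 5.62-fold below WT in ob/ob but 1.88-fold above it in the double mutant. Angptl4, an inhibitor of lipoprotein lipase induced by fatty acids, gave 976, 3209, 428 and 2180.0 in the same order. Its signal was above WT on both arrays without TBP-2 and below WT in ob/ob, with log2 differences of 1.59 in TBP-2-/-, -1.32 in ob/ob and 1.26 in the double mutant. For Angptl4, as for Pdk4 and Chac1, TBP-2-/- itself stood 2-fold above WT, and the double mutant lay between the values of the 2 single mutants. With spike-in RNA as the reference, Angptl4 was still below WT in ob/ob but by less than 2-fold, outside the overshot class.

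Among stayed off genes with both lean arrays alike, the higher ones included acute phase, growth factor and imprinted genes. Hp, haptoglobin, gave 1243 on WT, 1974 on TBP-2-/-, 4719 on ob/ob and 9632 on ob/ob TBP-2-/-. Both ob/ob genotypes were above both lean ones, and the double mutant was 8.30-fold over WT (3.05 ± 0.20 SE; chromosome 8, 112464401 to 112464460, mm8). Igfbp3, which binds insulin-like growth factors, gave 225, 328, 804 and 657, and Arrdc2, an alpha-arrestin related to Txnip, 455, 635, 1451 and 1347. Rian, a non-coding RNA of the imprinted Dlk1-Meg3 region, gave 121, 172, 383 and 603, and Meg3, from the same region, 753, 1112, 2180.3 and 3128. In both RNAs the double mutant was the highest array. Dct, an enzyme of melanin synthesis, gave 27.0, 37.5, 130.0 and 133, and Lrmda, which takes part in melanocyte differentiation, 71.0, 52.3, 322 and 552. All of these had ob/ob and the double mutant above both lean arrays.

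The lower stayed off genes with both lean arrays alike included muscle and immune genes. Csrp3, the muscle LIM protein of the Z disc, gave 25547 on WT, 22528 on TBP-2-/-, 6192 on ob/ob and 4309.7 on ob/ob TBP-2-/-, and the double mutant was 5.53-fold below WT (-2.47 ± 0.20 SE; chromosome 7, 48698714 to 48700628, mm8). Ighm, the heavy chain of immunoglobulin M, gave 11231, 18313, 735 and 3090.2, with both ob/ob genotypes below both lean ones. Actr3b, of the actin-nucleating complex, gave 407, 345, 41.3 and 59.3, and Lrtm2, a leucine-rich membrane protein, 413, 349, 54.7 and 37.0. Slc30a2, a zinc transporter, gave 1011, 779, 245 and 328. Wdfy1, an endosomal protein, gave 794, 871, 102 and 93.4, but its other probes ran from -2.80 to 1.28 in the double mutant, so its probes disagree.

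Stayed off genes for which TBP-2-/- was off too held the largest positive difference measured on both arrays. Mss51, a muscle mitochondrial protein known to fall when myostatin is inhibited, gave 180.3 on WT, 1081 on TBP-2-/-, 14211 on ob/ob and 16791 on ob/ob TBP-2-/-. WT was the lowest, TBP-2-/- between, and both ob/ob genotypes high, and the double mutant was 99.8-fold above WT (6.64 ± 0.20 SE; chromosome 14, 19271745 to 19272112, mm8). Lower genes of this kind were bright on WT alone: Fgr, a Src family kinase, gave 145, 23.2, 18.6 and 22.5, Ccdc146 184, 24.2, 26.2 and 23.1, Raph1 123, 21.9, 24.9 and 21.5 and Fthl17a 149.5, 12.9, 14.5 and 12.7. For Fthl17a 5 of the 8 neighbouring spots stood apart on the WT array too. Mup4, a major urinary protein gene that growth hormone induces in liver, gave 568, 150.3, 32.0 and 36.0, with both ob/ob genotypes below TBP-2-/-; genes of its family are near-identical, so the probe may read several of them. Trim12c gave 132, 40.2, 18.0 and 22.2.

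The rest of this group was led by matrix genes of tendon. In the tendon marker list 10 of 14 measured genes were 2-fold higher in the double mutant, against 3.89% of all genes, and none was lower. The list was chosen with earlier results of these data known, so its share is no independent support. Its median difference was 4.17, with 3.58 in ob/ob and 3.31 in TBP-2-/-. Comp, cartilage oligomeric matrix protein, gave 39.0, 1373, 1828 and 2304, and Tnmd, the tendon membrane protein tenomodulin, 32.6, 454, 760.5 and 1117 in the usual order. The WT array was the low one for all 10 genes called, and all 10 stayed off. The list's summed signal was 12403 on WT and 31482, 42549.8 and 46010.4 on the others, and its defining factor Scx, scleraxis, differed by 0.83 in the double mutant; Mkx was not well above background on both arrays. In bulk tissue fewer cells of a type and less RNA per cell cannot be told apart. Without the WT array, the median difference of the double mutant from ob/ob was 0.37, and 1 of 14 genes was 2-fold higher, against 2.67% of all genes either way. Spike-in scaling turned this median to -0.16, with 0 of 14 genes 2-fold higher.

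**Figure D3:**
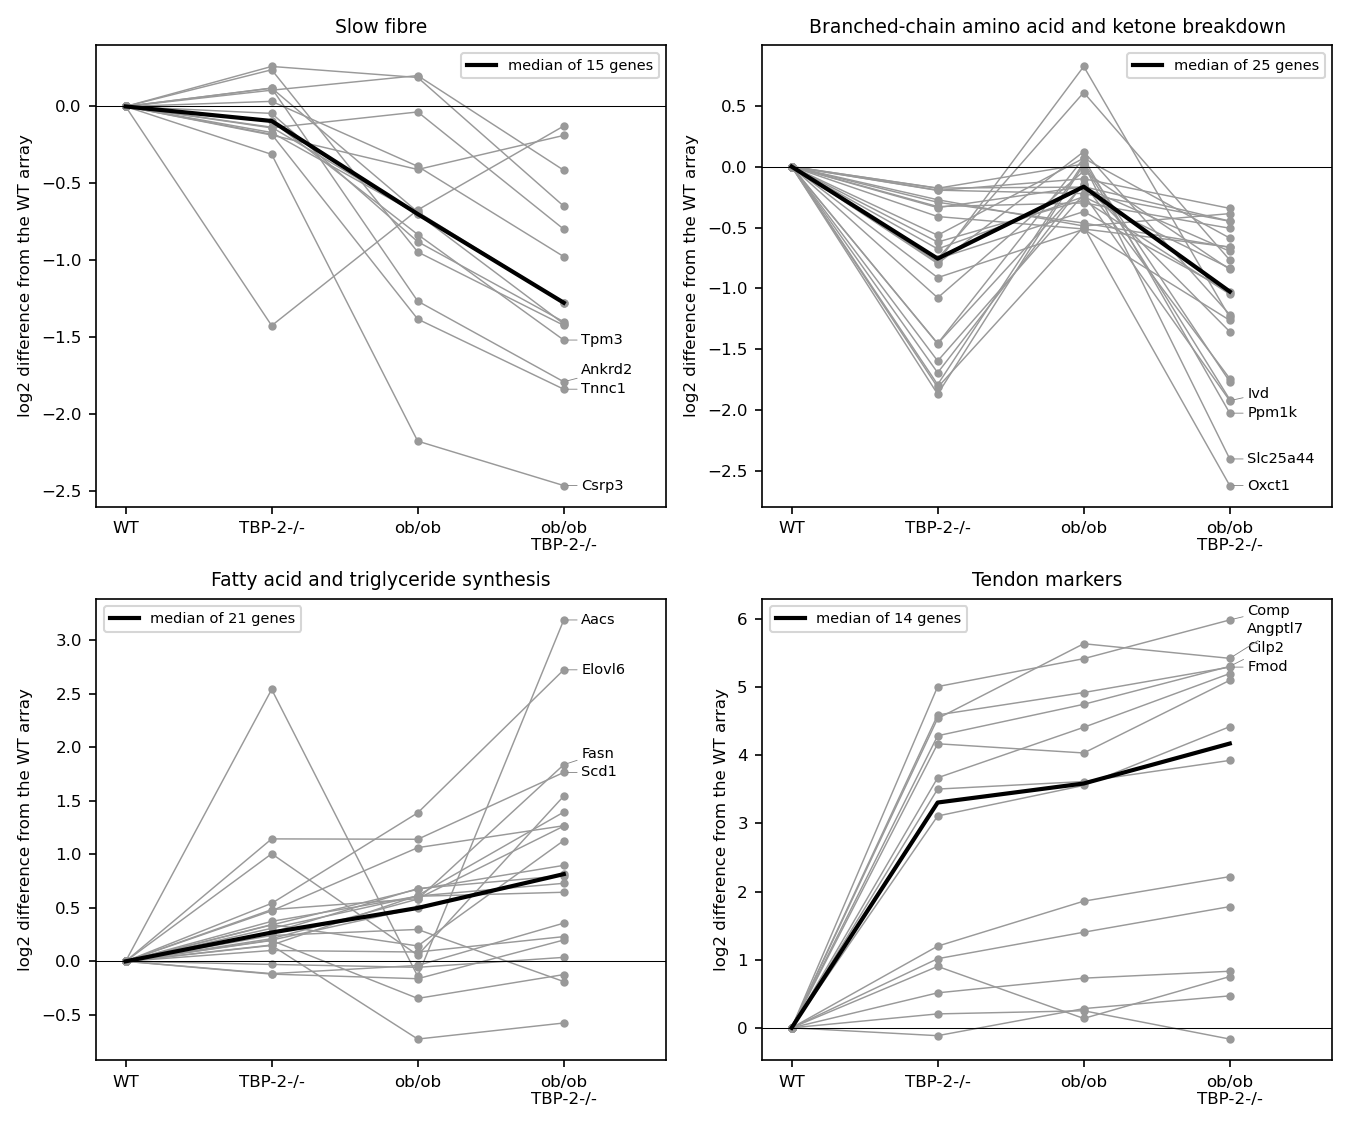
Each grey line is a measured gene of the list, plotted as its log2 difference from the WT array on each of the 4 arrays, lean genotypes left and ob/ob genotypes right, and the black line is the list's median; the 4 genes farthest from WT in the double mutant are named. Tendon markers leave 0 on all arrays but WT, slow fibre genes are lowest in the double mutant, the median of fatty acid synthesis genes is highest there (under spike-in scaling it is higher in ob/ob), and genes of branched-chain amino acid and ketone breakdown are low on both TBP-2-/- arrays.

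Most stayed off genes were near their ob/ob value: 248 of 324 were within 1.5-fold of ob/ob in the double mutant. A further 19 lay at least 2-fold farther from WT than ob/ob did, 17 of them higher, and 5 had moved at least 2-fold toward WT while still 2-fold off. Over all genes measured in both, 414 of 15478 (2.67%) differed 2-fold between the double mutant and ob/ob. Nmrk2, the muscle kinase that makes nicotinamide mononucleotide from nicotinamide riboside, went farthest. Its signals were 36969.6 on WT, 4279 on TBP-2-/-, 8472 on ob/ob and 910.1 on ob/ob TBP-2-/-, low in each single mutant and lowest in the double mutant at 37.9-fold below WT (-5.24 ± 0.20 SE). Fos, an immediate early transcription factor, gave 1124, 571, 254 and 92.0 in the same order. Among the higher genes that went farther, Elovl6, which elongates fatty acids, gave 81.9, 130.4, 235 and 504, Ddc, aromatic amino acid decarboxylase, 46.8, 112, 211 and 632, and Abcc8, the sulfonylurea receptor, 163, 640.1, 634 and 1736. Lep was also among them. Toward WT moved Cish, the STAT5 target that restrains cytokine signals, with 3453, 6482, 198 and 880.0, Cfd, the adipocyte protease adipsin, with 15411, 34429.6, 1627 and 3382, and Ighm. These 3 genes were low on both ob/ob genotypes, but less so without TBP-2. Spike-in scaling adds 0.67 to every ob/ob difference from WT and only 0.14 to that of the double mutant. It thus lowers every gene of the double mutant against ob/ob. Elovl6, Lep and Cfd were then less than 2-fold above ob/ob in the double mutant. Ddc, Abcc8, Cish and Ighm still stood 2-fold above ob/ob, and Nmrk2 and Fos 2-fold below it. The counts of this paragraph were not made under spike-in scaling.

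The 288 new genes were 2-fold off WT in the double mutant with ob/ob within 1.5-fold of WT, 194 higher and 94 lower. TBP-2-/- was 2-fold off the same way for 61 of them, so that both arrays without TBP-2 differed from both with it, and at the WT level for 145, so that the double mutant stood alone. A further probe was available for 65 new genes and was at least 2-fold off the same way in the double mutant for 35. Qprt, which makes an NAD precursor from quinolinate, gave 53.1 on WT, 570.3 on TBP-2-/-, 62.9 on ob/ob and 714 on ob/ob TBP-2-/-. Both arrays without TBP-2 were high, and the double mutant was 14.4-fold over WT (3.85 ± 0.21 SE; chromosome 7, 126899109 to 126899168, mm8). Aacs, which activates acetoacetate for lipid synthesis, gave 579, 3684, 577 and 4921, Smoc1, a secreted calcium-binding matrix protein, 72.4, 547, 118 and 588, and Gys2, the liver form of glycogen synthase, 13.0, 74.3, 20.9 and 97.9. These 3 genes followed the loss of TBP-2 as Qprt did. Cth, which makes cysteine from cystathionine, gave 153, 21.5, 193 and 24.2, and Kyat3, a kynurenine aminotransferase, 703, 197, 877 and 171, both low on the arrays without TBP-2. Under spike-in scaling, which adds 0.67 to every ob/ob difference, Smoc1 and Gys2 were 2-fold above WT in ob/ob. Qprt, Cth and Kyat3 then lay more than 1.5-fold above WT there, outside the new class.

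Other new genes were high or low in the double mutant beyond both single mutants. Mt2, a metallothionein that binds zinc, gave 1898 on WT, 4848 on TBP-2-/-, 2895 on ob/ob and 15839 on ob/ob TBP-2-/-, and its neighbour family member Mt1 1442, 1782, 1629.9 and 3524; the metallothionein genes are similar enough that probes may share signal. Ddit4, an inhibitor of mTORC1 that stress and glucocorticoids induce, gave 7668, 12456, 9209 and 32409. Dlk1, an imprinted inhibitor of adipocyte differentiation from the same region as Rian and Meg3, gave 112, 114, 126 and 615, and its other probe differed by 2.47. The double mutant alone was high in Dlk1, while Rian and Meg3 were high in ob/ob too. Ppara, the fatty acid receptor that drives fat oxidation genes, gave 399, 232, 439 and 77.7, lowest in the double mutant at -2.26 ± 0.21 SE. Lcmt2, a tRNA-modifying enzyme, gave 431, 401, 398 and 19.03, Pard6a, a polarity protein, 371, 369, 351 and 22.3, and Slc25a44, which carries branched-chain amino acids into mitochondria, 141, 136, 157 and 24.9. Each of these 3 genes was low on the double mutant's array alone and rests on a single probe, with 0 of 7, 1 of 8 and 0 of 7 neighbouring spots also apart there. Under spike-in scaling Mt2 was 2-fold above WT in ob/ob. Mt1, Ddit4, Dlk1, Ppara and Slc25a44 then lay more than 1.5-fold above WT in ob/ob, outside the new class.

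Enzymes that break down branched-chain amino acids and ketone bodies formed the largest block of new lower genes among the lists. In the list 13 of 25 measured genes were 2-fold lower, against 2.15% of all genes, none was higher, and 12 were new. The median difference was -1.03 in the double mutant, -0.76 in TBP-2-/- and -0.16 in ob/ob. Under spike-in scaling it was -0.88 in the double mutant and 0.51 in ob/ob. Oxct1, which lets muscle use ketone bodies, gave 50872 on WT, 15867 on TBP-2-/-, 39611 on ob/ob and 7735 on ob/ob TBP-2-/-, and its 2 other probes differed by -2.97 and -2.94. Bcat2, the aminotransferase of the first step, gave 465, 139.6, 516 and 115. All of these were low on both arrays without TBP-2. Bckdhb, a subunit of the branched-chain ketoacid dehydrogenase, gave 1808, 573, 2029 and 496, and Dbt, another subunit, 348, 118, 346 and 97.1. Ppm1k, the phosphatase that activates that complex, gave 425, 170.2, 489 and 97.6, and these 3 genes had the same pattern. Bdh1, which makes acetoacetate from 3-hydroxybutyrate, was above WT in ob/ob with 323, 205, 626 and 128 and below it in the double mutant. Set against ob/ob in place of WT, the list's median was -0.77 and 11 of 25 genes were 2-fold lower, against 2.67% of all genes either way. Spike-in scaling made 18 genes 2-fold lower, with a median of -1.30. That scaling lowers every gene of the double mutant against ob/ob, and the share of all genes under it was not counted.

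Slow fibre genes were lower in ob/ob, where spike-in scaling brought their median to -0.03, and lower again in the double mutant. Of 15 measured genes 9 were 2-fold lower, against 2.15% of all genes, and none was higher. The median was -1.28 with -0.70 in ob/ob and -0.09 in TBP-2-/-. The 3 genes off in ob/ob (Csrp3, Tnnc1 and Ankrd2) all stayed off, but under spike-in scaling only Csrp3 of these was 2-fold off in ob/ob. Myh7, the slow myosin heavy chain, gave 316839 on WT, 308333 on TBP-2-/-, 213873 on ob/ob and 121937 on ob/ob TBP-2-/-. Tnnc1, slow troponin C, gave 10353, 9994, 4352 and 2697, and Tnni1, slow troponin I, 11946, 15429.5, 6798 and 4152. These 3 genes were lowest in the double mutant and next lowest in ob/ob, with the lean arrays alike for Myh7 and Tnnc1. The fast fibre list had no called gene among 16, against 6.04% of all genes, and its median of 0.05 was near that of all genes. Muscles differ in their share of slow fibres, and the labels do not name the muscle taken.

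Part of the fatty acid and triglyceride synthesis genes were higher. In the double mutant 9 of 21 were 2-fold higher, against 3.89% of all genes, and none was lower, with a median of 0.81 against 0.50 in ob/ob and 0.27 in TBP-2-/-. Under spike-in scaling the order of the 2 ob/ob genotypes turned, to 1.17 in ob/ob and 0.96 in the double mutant. Fasn, fatty acid synthase, gave 7519.6 on WT, 9531 on TBP-2-/-, 12337 on ob/ob and 25041 on ob/ob TBP-2-/-. Scd1, stearoyl-CoA desaturase, gave 3179, 7684, 7682 and 10070.1, Acaca, acetyl-CoA carboxylase, 88.9, 195, 101 and 242, and the lipogenic regulator Srebf1 7378, 11287, 12141 and 16509. The double mutant was the highest array for all 4 genes. Scd1, Scd2 and Elovl6 were off in ob/ob and stayed off, and Fasn, Acaca, Aacs and Thrsp were new. Under spike-in scaling Fasn was 2-fold above WT in ob/ob too.

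Adipocyte markers differed among themselves, and their values stand beside the synthesis genes. Of 13 measured markers 5 were 2-fold higher in the double mutant, against 3.89% of all genes, and Cfd was 2-fold lower. The median was 0.78 against 0.29 in ob/ob (0.92 against 0.96 under spike-in scaling, where the order turned), and Adrb3 and Ucp1 were not well above background on both arrays. Adipoq, adiponectin, gave 1291 on WT, 3496 on TBP-2-/-, 2239.5 on ob/ob and 5041 on ob/ob TBP-2-/-, and Plin1, the lipid droplet coat protein of adipocytes, 482, 869, 732 and 1530.1. Against ob/ob, 7 of 13 markers were 2-fold higher in the double mutant, against 2.67% of all genes either way, and the median was 1.29. Under spike-in scaling 1 marker was 2-fold higher than in ob/ob and 1 was 2-fold lower, and the median was 0.76. The brightest marker, Car3, had 77840.3, 70809, 74028 and 43451, lowest in the double mutant, and the summed signal ran from 139406 in the double mutant, below the 163913 on WT, to 192781 in TBP-2-/-. The part of fat tissue in the synthesis genes was not tested.

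Mitochondrial lists shifted a little toward lower values with few genes called. None of 34 oxidative phosphorylation genes and none of 16 tricarboxylic acid cycle genes was 2-fold off, against 6.04% of all genes. All lay below WT in the double mutant under 75th percentile scaling, with medians of -0.52 and -0.47. In ob/ob the medians were -0.36 and -0.21, which spike-in scaling turned to 0.31 and 0.47. Sdhb, a subunit of succinate dehydrogenase, gave 33946, 26599, 32518 and 15989.8, and Idh2, mitochondrial isocitrate dehydrogenase, 5191, 5933, 6957 and 2488. Fatty acid uptake and oxidation had a median of -0.47 in the double mutant, 0.33 in TBP-2-/- and 0.01 in ob/ob. Of its 29 genes only Angptl4 was called, against 6.04% of all genes. In the list of PPAR and ERR receptors and coactivators, Ppara and Perm1 were 2-fold lower of 17, against 2.15% of all genes. Perm1, a muscle coactivator-induced regulator, gave 8264, 7089, 7021 and 3016.

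**Figure D4:**
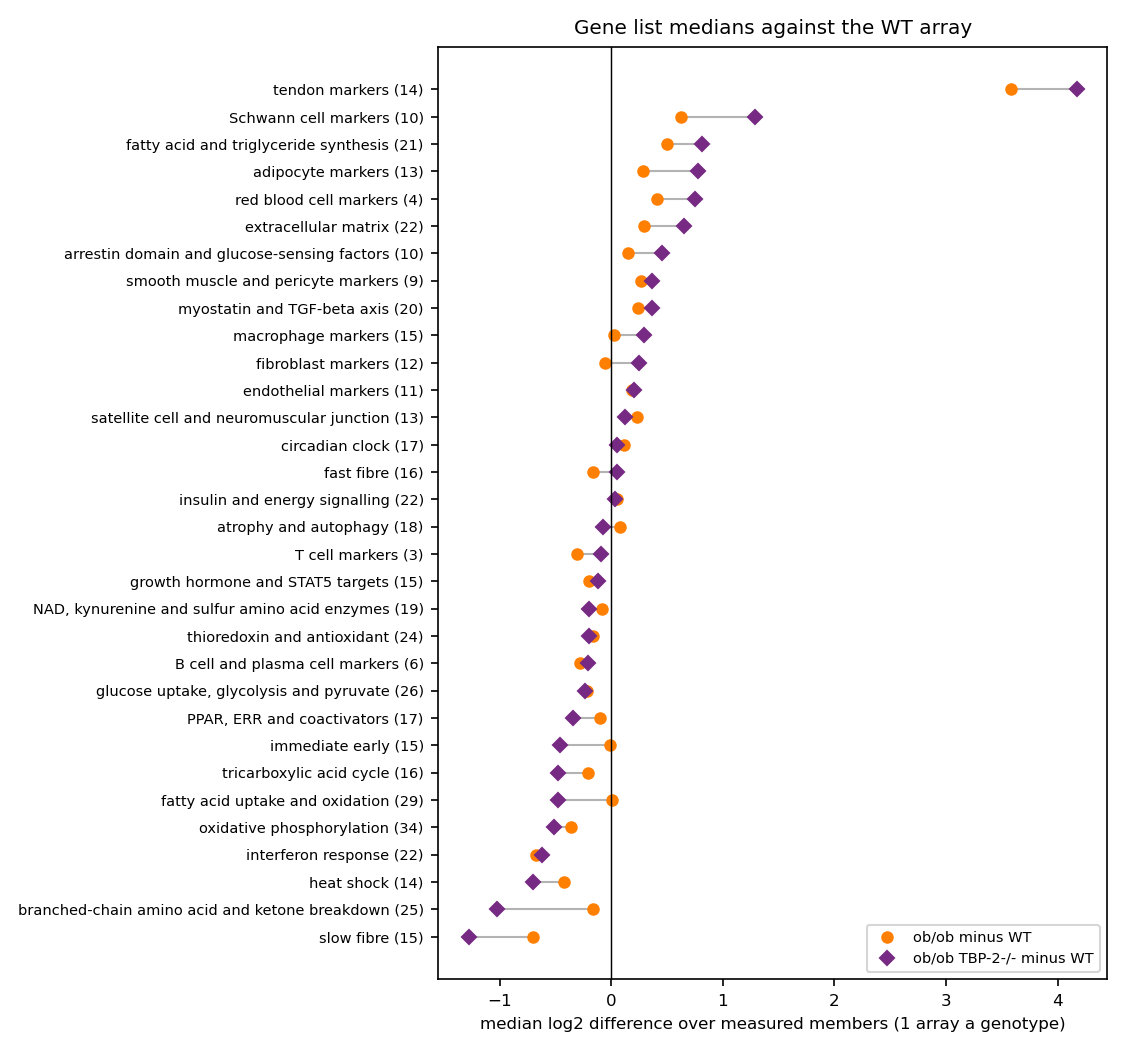
For each gene list, with the number of genes measured on both arrays in brackets, the x axis gives the median log2 difference from WT in ob/ob (circles) and in ob/ob TBP-2-/- (diamonds), 1 array a genotype. The diamond lies beyond the circle for tendon, Schwann cell, slow fibre and heat shock lists, on the far side of a circle near 0 for branched-chain amino acid and ketone breakdown, and beside the circle for the interferon response.

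The growth hormone and interferon genes that were off in ob/ob stayed off or came partway. In the list of growth hormone and STAT5 targets 4 of 15 measured genes were off in ob/ob, against 3.56% of all genes. Mup4, Cish and Igfbp3 stayed off, and Socs2, a suppressor of growth hormone signals with 488, 754, 178 and 247, came partway. The list's median was -0.12, which turned to 0.03 under spike-in scaling. Interferon response genes had a median of -0.62 against -0.67 in ob/ob (0.0022 there under spike-in scaling) and 0.05 in TBP-2-/-. In the double mutant 3 of 22 were 2-fold lower, against 2.15% of all genes. Of the 3 off in ob/ob and measured throughout, 2 stayed off and Gbp3 came partway. Ifit3, an antiviral protein, gave 568 on WT, 375 on TBP-2-/-, 265 on ob/ob and 190.1 on ob/ob TBP-2-/-, and Oas1a, an antiviral synthetase, 50.9, 56.3, 22.8 and 19.6. In Oas1a both ob/ob genotypes were below both lean ones. Under spike-in scaling, which adds 0.67 to every ob/ob difference, Socs2, Ifit3 and Oas1a were less than 2-fold off in ob/ob.

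Some genes of the stress lists were lower, and some of the matrix and nerve lists higher. Heat shock genes had a median of -0.70 with 2 of 14 genes 2-fold lower, against 2.15% of all genes, Hspa1a with 2909, 3388, 2045 and 964 and Hspb1, a small heat shock protein, with 14730.0, 15343, 7220.0 and 5325. Immediate early genes had 4 of 15 lower, Fos, Egr1, Atf3 and Fosb, against the same 2.15%. In the extracellular matrix list 7 of 22 were higher, against 3.89% of all genes, and none lower, with a median of 0.65. Col1a1, a chain of type I collagen, gave 6921, 20975, 17392 and 29615, low on WT and highest in the double mutant. Schwann cell markers had 6 of 10 higher against the same 3.89%, a median of 1.29 against 0.62 in ob/ob and 0.97 in TBP-2-/-, and a summed signal of 5296 on WT and 9613 to 12439 on the others. Mbp, myelin basic protein, gave 438, 1630.1, 828 and 1281. Gpx3, the extracellular glutathione peroxidase, was off in ob/ob and stayed off with 3037, 3148, 1333 and 959.7. Under spike-in scaling it was less than 2-fold off in ob/ob. Macrophage, T cell and endothelial markers had no 2-fold gene in the double mutant, and fibroblast markers had 1 of 12, Mfap5 at 1.03. Over all genes the share was 6.04% either way.

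Over all 32 lists 513 different genes were measured on WT, ob/ob and the double mutant. Of these, 48 were off in ob/ob, against 523 of all 14964 genes measured on the 3 arrays. Among the 48, 38 stayed off, 6 came partway, 3 returned (Pdk4, Chac1 and Aif1) and 1 overshot (Angptl4). Among the 523, 62.0% stayed off, 17.4% came partway, 19.3% returned and 1.34% overshot. The lists held 41 new genes, against 288 of the 14964. The lists were chosen with earlier results of these data known, so these counts are no test of them.

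Some genes were well above background on only 1 of the 2 arrays, and for these the difference is a bound, with the dim array set at the higher of the gene's own signal and the lowest signal of any probe well above background on it. In the double mutant Ttc25 was higher than in WT by at least 49.97-fold. The bound was 48.1-fold for Ecrg4 and 33.2-fold for Cacnb4, a calcium channel subunit. Their signals on WT were 8.59, 11.0 and 8.38, and in the double mutant 525, 506 and 349. Tsen34, part of the enzyme that cuts introns from tRNA, was lower by at least 271-fold, with 2662, 3234, 3045 and 3.91 in the usual order, low in the double mutant alone, and 2 of 8 neighbouring spots stood apart on that array. Mup1 was at least 57.9-fold lower, with 735, 160.1, 2.79 and 11.8, low on both ob/ob genotypes, and Cacna2d4, another calcium channel subunit, at least 17.8-fold lower, with 175, 44.4, 18.5 and 2.06.

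A test was possible only through additivity: limma fitted a TBP-2 effect and an ob/ob effect over the 4 arrays, so that the sum of the 2 effects equalled the measured difference of the double mutant from WT and the error was the departure from additivity, with 1 residual degree of freedom. At a Benjamini-Hochberg adjusted p under 0.05, 36 of 16135 genes (0.223%) were called higher and 22 (0.136%) lower, and 2539 genes had an unadjusted p under 0.05. Lep (4.07, limma adjusted p = 0.025), Qprt (3.85, limma adjusted p = 0.026) and Gys2 (3.02, limma adjusted p = 0.029) were among the higher genes, and Nmrk2 (-5.24, limma adjusted p = 0.025) and Fos (-3.51, limma adjusted p = 0.025) among the lower ones. Under quantile normalization the fit called no gene, so no class or list above rests on it.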

How the data were processed

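RNA of skeletal muscle from 4 genotypes was measured on 1 one-colour Agilent array each. Per the file headers, the deposited scanner files hold spot intensity values made with Agilent Feature Extraction 9.5.3.1, background-subtracted and not scaled between arrays. The authors also deposited a value table in log2, with 75th percentile scaling and centring on each probe's median, as found by setting 22008 probes against the scanner signals; its column medians were 0.09, -0.06, -0.01 and 0.01 for the lean WT and TBP-2-/- and then the ob/ob and double mutant arrays, its direction is higher for more signal, and no level is kept in it. Here the processed signal was divided by the 75th percentile of the array's non-control spots and turned to log2. Outlier spots were left out (78, 62, 59 and 110), replicate spots were averaged, and a gene took its probe with the highest mean level. Probes were named through RefSeq (GRCm38.p6) by accession (24367), symbol (6307) or synonym (2425), and otherwise by the files (8075). Positions of probes come from the array annotation (mm8).

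A call means a 2-fold difference and a returned gene lies within 1.5-fold of WT. Named genes are, in each class and direction, the 6 largest differences that keep their class under quantile and normexp processing and have an official symbol, the 3 largest bounds each way, Txnip, Lep and the 4 members of each list farthest from WT in the double mutant. Some results the rule selects are not reported here. Genes named beside these, such as Nnt, Smox, Tbc1d1, Meg3, Kyat3, Ddc and Abcc8, were chosen after their values were seen. The members and the lists were chosen with earlier results of these data known. The fit used limma 3.58.1 (lmFit, eBayes) in R 4.3.3 on genes that 2 or more arrays measured above background, was tested on simulated data, and had 3.80 prior degrees of freedom. Alternatives were quantile normalization, normexp, spike-in scaling, the median of probes, no filter, the deposited table, a 3-fold threshold and a narrower returned class. Normexp here means normexp background correction with an offset of 50, followed by quantile normalization. The number of arrays limits the precision.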

Additional observations from a re-analysis of the deposited data

Results flagged for a closer look

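Slpi and Angptl4 lay on opposite sides of WT in ob/ob and in ob/ob TBP-2-/- muscle. Slpi differed from WT by -2.49 in ob/ob and by 0.91 in the double mutant on the log2 scale, and by -0.41 in TBP-2-/-. Angptl4 differed by -1.32 in ob/ob, by 1.26 in the double mutant and by 1.59 in TBP-2-/-. With spike-in RNA as the reference, Angptl4 was still below WT in ob/ob but by less than 2-fold. With 1 array a genotype, neither difference between the genotypes was tested.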

How the results depend on the processing

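No paired analysis was possible because each genotype has 1 array and no replicate number is shared, and for the same reason no replicate could be left out. Quantile normalization, the median of probes and the deposited table kept each count of the classes within 1.5 times; quantile normalization kept 290 of the 324 stayed off and 81 of the 101 returned genes. Normexp gave 250 genes higher and 138 lower in the double mutant, 116 stayed off, 33 partway, 23 returned, 3 overshot, 99 new higher and 55 new lower, and kept 114 of the 324 stayed off and 19 of the 101 returned genes. Spike-in scaling, which raises all ob/ob differences, put 2409 genes off in ob/ob, of which 687 stayed off, 729 came partway, 976 returned and 17 overshot, with 48 new higher. It kept 253 of the 324 stayed off, 36 of the 101 returned, 21 of the 91 partway, 35 of the 194 new higher and 34 of the 94 new lower genes. Without the filter on dim probes there were 1925 higher, 1082 lower, 1302 stayed off, 275 partway, 631 returned, 89 overshot, 839 new higher and 234 new lower, and with a 3-fold threshold 202, 101, 99, 31, 14, 3, 42 and 26 in the same order. A returned class limited to genes nearer to WT gave 51 returned, 14 overshot, 81 new higher and 51 new lower. The additive fit with limma called 36 genes higher and 22 lower (2539 at an unadjusted p under 0.05). It called 0 and 0 under quantile normalization, 76 and 35 under normexp, 209 and 64 under spike-in scaling, 195 and 81 over genes well above background on all 4 arrays, and 490 and 241 with an intensity trend. The cause of these differences was not tested. Of 157 named genes the double mutant's difference moved beyond its error for 62 under normexp, 11 under the median of probes and 2 under quantile normalization. Spike-in scaling adds a constant 0.14 to each of these differences, below every error, so it was not counted. Dim genes limit what can be read: 14 genes off in ob/ob could not be placed because they were not well above background in the double mutant.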
